A study of Mus musculus with 8 samples.

Results

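Messenger RNA of 9 genes of Notch signalling and of the secretory fate that it controls was examined in small-intestinal tuft cells of mice: the receptors Notch1 and Notch2, the ligands Jag1, Dll1 and Dll4, the DNA-binding effector Rbpj, the Hes factors Hes1 and Hes6, and Atoh1. They were taken by symbol, and all 9 were among the 53655 named genes of the count table. The cells came from naïve mice of genotype Il25-RFP/+;Chat-GFP(Tg+), which carry a red reporter for the tuft cell cytokine gene Il25 and a transgenic green reporter for Chat, the gene of the enzyme that makes acetylcholine. CD45-negative, EPCAM-positive, Il25-RFP-positive cells were sorted into a gate with the green signal (Chat-pos) and a gate without it (Chat-neg), with 4 libraries each, so both gates share the genotype and differ in the reporter signal. Neither the animals behind the libraries nor an age is given in the labels, so the p-values reflect differences among libraries that may be technical.

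Notch is a receptor that is cut within the membrane when a neighbouring cell presents a ligand of the Jagged or Delta-like family. The freed intracellular part binds RBPJ in the nucleus and switches on Hes genes, whose proteins repress other genes. In intestinal crypts Notch signalling keeps progenitors dividing and Hes1 represses Atoh1, while cells that escape it express Atoh1 and Delta-like ligands and become secretory cells. Tuft cells of the mouse gut have been described as a lineage apart from the other secretory cells, and their need for Atoh1 as different between parts of the gut.

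Hes1 and Hes6 were the members with the highest levels, and they are relatives whose proteins end in a motif of tryptophan, arginine, proline and tryptophan that recruits TLE corepressors. The last 30 coding bases of each gene, from GENCODE M21 on GRCm38, are shown 5′ to 3′ without the stop codon because they carry that shared end, with the 12 bases of the motif in capitals.
Hes1: tcggactccatgTGGAGACCGTGGcggaac
Hes6: cgccgggctcagagtgtgTGGAGGCCTTGG
The capitals match at 10 of 12 bases, and in Hes1 6 more coding bases follow the motif whereas Hes6 ends with it. The Hes1 stretch lies on chromosome 16 at 30067396 to 30067425 (plus strand) and the Hes6 stretch on chromosome 1 at 91412061 to 91412090 (minus strand). The coding sequences are 846 bp long in Hes1 and 672 bp long in Hes6.

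Counts in named genes ran from 1757401 to 2541955 in the Chat-pos libraries and from 87642 to 1176880 in the Chat-neg libraries, so the gates did not overlap in depth. Levels are given as CPM, counts per 1000000 of the library's named-gene total scaled by TMM. A count of 3 was taken as the floor of detection and as the limit that a count of 0 allows; it equals 1.24 to 1.83 CPM in the Chat-pos gate, against 2.53 to 31.1 CPM in the Chat-neg gate. Intervals and floors cover counting error only. All 12 tuft cell markers examined had at least 1 count in all 8 libraries. Il25, the gene of the sorting reporter, had 1 count in Chat-neg replicate 1, under the floor. The summed level of the 12 markers was 22628 to 23663 CPM in the Chat-pos gate, against 8857 to 16954 CPM in the Chat-neg gate. Chat-pos replicates 2 and 3 were rich in Paneth cell transcripts, at 47202 and 27547 CPM over 8 markers, against 545 and 417 CPM in Chat-pos replicates 1 and 4, and 622 to 2765 CPM in Chat-neg. In bulk samples like these, fewer cells of a type and less RNA per cell cannot be told apart.

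Per length, Hes1 stood far above the rest. Levels were divided by the length of a gene's merged exons, which allows genes to be set side by side, and the order below is that of the Chat-pos means. Hes1 had 22.9 ± 6.46 CPM per kb in Chat-pos and 66.1 ± 49.1 CPM per kb in Chat-neg (SD, n = 4 each). Hes6 followed with 8.76 ± 2.44 CPM per kb in Chat-pos and 12.6 ± 5.02 CPM per kb in Chat-neg, and Dll1 with 3.16 ± 0.906 CPM per kb in Chat-pos and 1.78 ± 1.498 CPM per kb in Chat-neg. In Chat-pos these 3 levels were separated by more than their SDs, and in Chat-neg the ranges given by the SDs of Dll1, Dll4, Atoh1 and Rbpj ran together. Hes1 lay above Hes6 in each of the 4 Chat-neg libraries, and its wide SD there reflects the high value of replicate 4. Atoh1 and Dll4 had 0.887 ± 0.699 and 0.675 ± 0.297 CPM per kb in Chat-pos, which do not differ beyond their spread. Rbpj, Notch1, Jag1 and Notch2 closed the order with 0.296 ± 0.157, 0.201 ± 0.161, 0.117 ± 0.120 and 0.0810 ± 0.0575 CPM per kb in Chat-pos, and each overlapped its neighbour by the same measure.

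**Figure D1:**
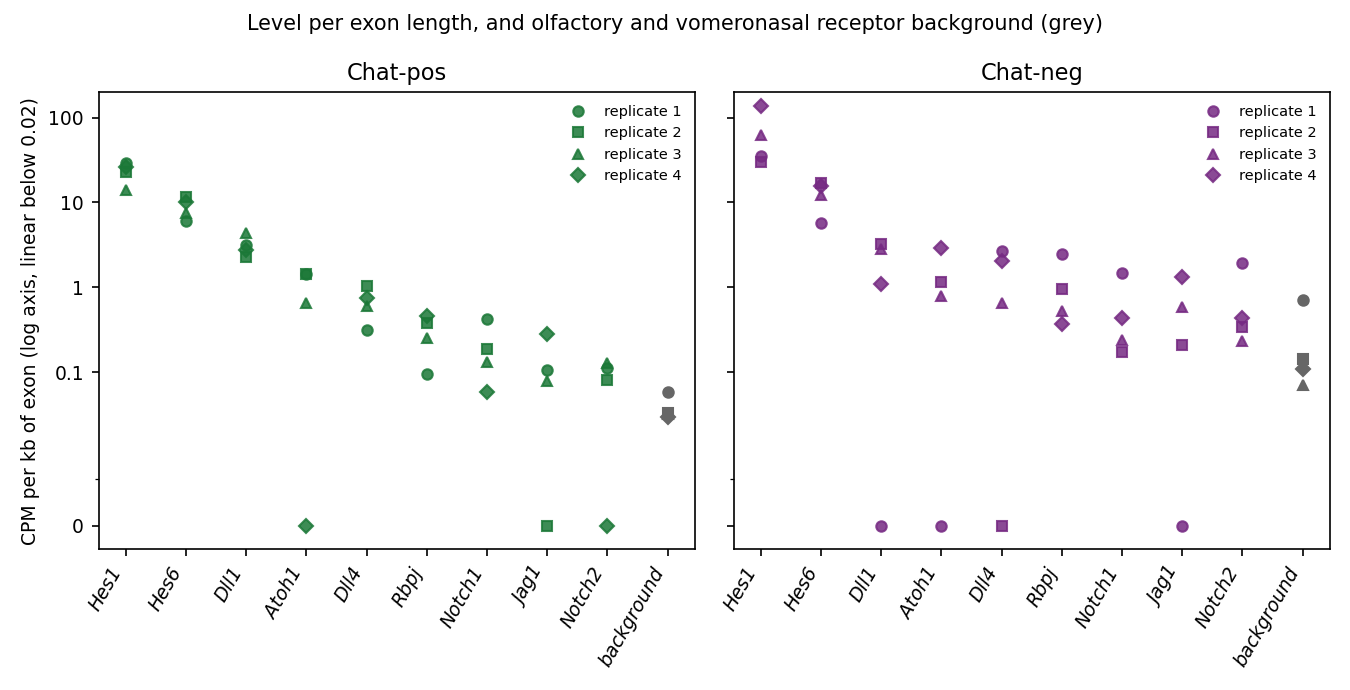
CPM per kb of exon of each member in each library, on a symmetric log axis (linear near 0), in Chat-pos (left) and Chat-neg (right). Grey points give the summed level of olfactory and vomeronasal receptor genes per kb of their exons. Hes1 is the highest member in every library, and the lowest grey points lie at 0.0296 CPM per kb in Chat-pos and 0.0716 CPM per kb in Chat-neg.

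Olfactory and vomeronasal receptor genes, which are not known from these cells apart from Vmn2r26 (left out), served as a yardstick of stray reads. The 1434 of them with an annotated length held 0.0296 to 0.0581 CPM per kb in Chat-pos and 0.0716 to 0.701 CPM per kb in Chat-neg, with the highest value in Chat-neg replicate 1. That these genes are silent here is assumed and was not tested. Hes1 exceeded this yardstick 433 to 878 times in Chat-pos and 50.8 to 1261 times in Chat-neg. Notch2, by contrast, exceeded it 1.95, 2.46 and 4.03 times in Chat-pos replicates 1 to 3 and was at 0 counts in replicate 4, against 2.41 to 3.99 times in Chat-neg. Notch1 exceeded it 1.96 to 7.39 times in Chat-pos and 1.22 to 4.03 times in Chat-neg, so both receptors lay much nearer to the level of stray reads than Hes1 did. This was not particular to the receptors. Jag1 stood at 0 to 9.59 times the yardstick in Chat-pos and 0 to 12.3 times in Chat-neg, and Rbpj at 1.65 to 15.3 and 3.38 to 7.39 times. Dll4 stood at 5.46 to 30.9 times in Chat-pos and 0 to 18.6 times in Chat-neg, and Atoh1 at 0 to 43.7 and 0 to 27.1 times.

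Of the receptors, Notch1 is the main one of crypt progenitors, with Notch2 acting beside it. Notch1 (chromosome 2, 26457903 to 26516663) had 10, 6, 4 and 2 counts in Chat-pos replicates 1 to 4 and 2, 2, 4 and 4 counts in Chat-neg replicates 1 to 4. This is 6.11, 2.64, 1.86 and 0.828 CPM in the Chat-pos gate, against 20.7, 2.47, 3.37 and 6.22 CPM in the Chat-neg gate. The groups overlapped, and the high value of Chat-neg replicate 1 rests on 2 counts, with an exact (Clopper-Pearson) 95% interval of 2.51 to 74.8 CPM. Notch1 shares 1068 bp of exon with 0610009E02Rik and 414 bp with Gm13568 on the other strand, and libraries of this kind (SMARTer v4 cDNA with Nextera XT) do not mark strand, so its reads are uncertain. Notch2 (chromosome 3, 98013527 to 98150361) had 2, 2, 3 and 0 counts in Chat-pos and 2, 3, 3 and 3 counts in Chat-neg, or 1.22, 0.880, 1.39 and 0 CPM in the Chat-pos gate, against 20.7, 3.70, 2.53 and 4.66 CPM in the Chat-neg gate. The Chat-pos values of Notch2 all lay below the Chat-neg values, but no library held more than 3 counts, and Notch2 shares 541 bp of exon with Gm42820. Neither receptor passed the filter on low counts. In a fit without that filter, in which the median log2 difference of all 32856 genes was -0.34, Notch1 stood at -0.74 (edgeR adjusted p = 0.637) and Notch2 at -2.32 (edgeR adjusted p = 0.306).

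**Figure D2:**
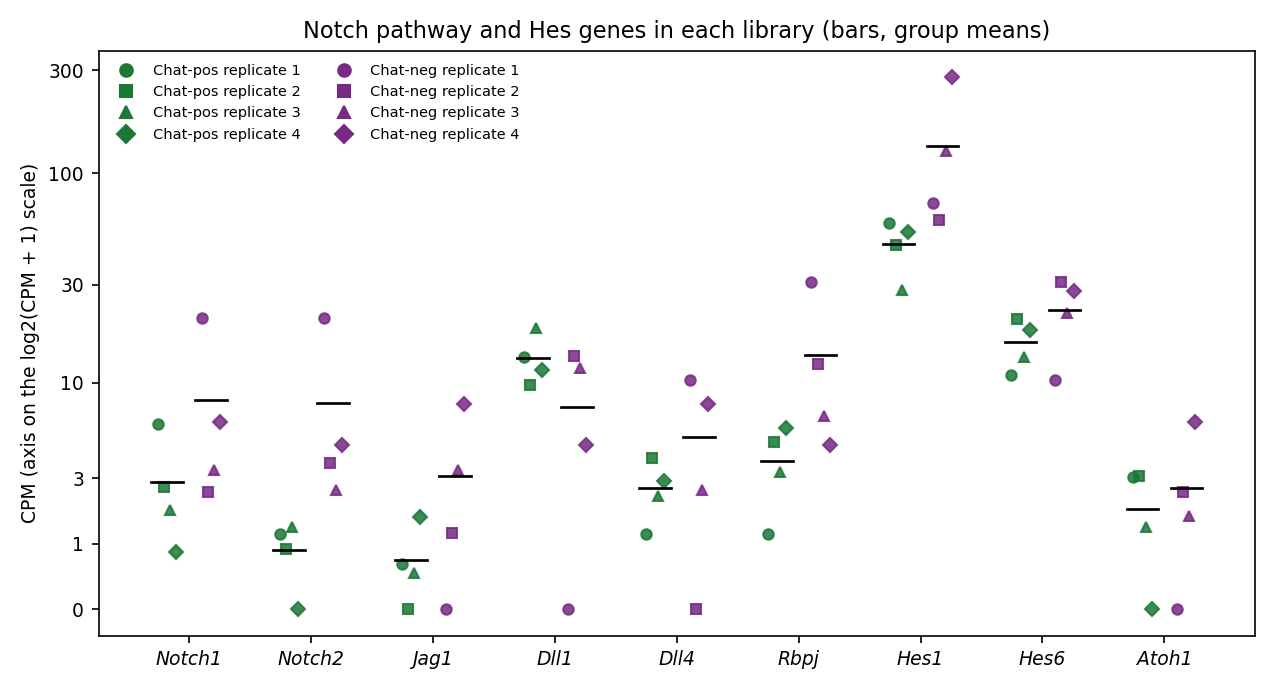
CPM of each of the 9 members in each library, on the log2(CPM + 1) scale, with Chat-pos (green) left of Chat-neg (purple) and black bars for group means. The 4 Chat-pos values of Hes1 lie between 28.3 and 58.6 CPM, below all 4 Chat-neg values (60.5 to 278 CPM), whereas those of Hes6, Dll1, Dll4, Jag1, Rbpj, Notch1 and Atoh1 overlap.

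Among the ligands, Dll1 was the one seen above the floor in most libraries. Dll1 and Dll4 are the Delta-like ligands that secretory cells of the crypt present to their neighbours. Dll1 (chromosome 17, 15367354 to 15376872) had 13.4, 9.68, 18.6 and 11.6 CPM in Chat-pos replicates 1 to 4, against 0, 13.6, 11.8 and 4.66 CPM in Chat-neg replicates 1 to 4. The groups overlapped, and the 0 in Chat-neg replicate 1 allows up to 31.1 CPM, more than the level in any other library. Dll1 averaged 13.3 ± 3.82 CPM in the Chat-pos gate, against 7.51 ± 6.32 CPM in the Chat-neg gate (SD, n = 4 each). Its log2 difference, 0.43 ± 0.48 (SE), did not pass at a Benjamini-Hochberg adjusted p of 0.05 (edgeR quasi-likelihood, adjusted p = 0.668). It shares 867 bp of exon with A930024N18Rik on the other strand. Dll4 (chromosome 2, 119325784 to 119335962) had 2, 9, 5 and 7 counts in Chat-pos and 1, 0, 3 and 5 counts in Chat-neg, which is 1.22 to 3.96 CPM in the Chat-pos gate, against 0 to 10.4 CPM in the Chat-neg gate. Jag1 (chromosome 2, 137081456 to 137116644), a Jagged ligand, had 1, 0, 1 and 4 counts in Chat-pos and 0, 1, 4 and 5 counts in Chat-neg. Jag1 reached at most 1.66 CPM in the Chat-pos gate, against 7.77 CPM in the Chat-neg gate, and both ligands overlapped between the gates. Both failed the filter, and without it Dll4 stood at -0.31 (edgeR adjusted p = 0.858) and Jag1 at -2.07 (edgeR adjusted p = 0.354).

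Rbpj encodes the DNA-binding protein through which all Notch receptors act. It lies on chromosome 5 at 53466152 to 53657362 and had 2, 11, 7 and 14 counts in Chat-pos and 3, 10, 8 and 3 counts in Chat-neg. These counts gave 1.22, 4.84, 3.25 and 5.80 CPM in the Chat-pos gate, against 31.1, 12.3, 6.75 and 4.66 CPM in the Chat-neg gate, with overlap between the gates. The highest value, in Chat-neg replicate 1, is that of 3 counts and has an interval of 6.41 to 90.8 CPM. Rbpj failed the filter on low counts, and without it the log2 difference was -1.15 (edgeR adjusted p = 0.354). The pseudogenes Rbpj-ps1 and Rbpj-ps3 were at 0 counts in all 8 libraries. Whether the counting assigned reads that match both gene and pseudogenes is not given in the sources used here, so the level of Rbpj is uncertain.

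RefSeq promoters (GRCm38.p6) were matched for 8 of the 9 members, all but Hes1, as 11 windows of 250 bases that end before the annotated start. TGGGAA, the core that RBPJ binds, was searched on both strands and occurred in 2 of the 11 windows, both of Rbpj, which overlap and share a match, against 21.6% of 32851 promoter windows of that length. CACNAG, the N box that Hes proteins bind, occurred in 4 of the 11 (1 window each of Notch1, Notch2, Dll4 and Hes6), against 36.7% of all windows, and no match of one motif overlapped another. The window of Rbpj with 2 TGGGAA matches, one on each strand, is shown 5′ to 3′ with the matches in capitals, as the member sequence that carries the pathway's own motif.
Rbpj: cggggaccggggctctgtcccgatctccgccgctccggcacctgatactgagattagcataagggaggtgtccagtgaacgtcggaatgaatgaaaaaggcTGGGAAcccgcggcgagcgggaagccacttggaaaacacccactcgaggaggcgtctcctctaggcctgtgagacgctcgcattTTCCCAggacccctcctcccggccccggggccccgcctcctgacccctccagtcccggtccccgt
It is chr5:53590096-53590345 on the plus strand, inside the GENCODE span of the gene. A match of letters is a description of the sequence only.

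Hes1, the repressor through which Notch holds back the secretory fate, had a lower level in each Chat-pos library than in any Chat-neg library, and the difference passed in some fits and not in others. It lies on chromosome 16 at 30064384 to 30067796 and had 58.6, 46.2, 28.3 and 53.0 CPM in Chat-pos replicates 1 to 4, against 72.5, 60.5, 127 and 278 CPM in Chat-neg replicates 1 to 4. The 4 Chat-pos values lay below all Chat-neg values, which held for 4.72% of the 8919 genes tested, and Chat-neg replicates 3 and 4 stood highest. The gap between the gates was narrow at its edge: Chat-pos replicate 1 (interval 47.5 to 71.6 CPM) and Chat-neg replicate 2 (44.8 to 80.0 CPM) agree within counting error, and the value of Chat-neg replicate 1 rests on 7 counts. Hes1 averaged 46.5 ± 13.2 CPM in the Chat-pos gate, against 135 ± 100.04 CPM in the Chat-neg gate (SD, n = 4 each). The log2 difference was -1.64 ± 0.49 (SE), or 3.12-fold lower in Chat-pos, and it did not pass after adjustment (edgeR quasi-likelihood, adjusted p = 0.0996).

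With this fit 0 of the 3 members that passed the filter (Hes1, Hes6 and Dll1) were called, and 1 of 3 had an unadjusted p under 0.05, where 6.49% of the 8919 genes tested were called and 20.8% had such a p. The call of Hes1 depended on the tool and on the setting, since 6 of 17 alternative fits called it and 11 did not. DESeq2 called it (log2 difference -1.61, adjusted p = 0.000685; 11.3% of the 5631 genes given an adjusted p were called), and so did limma-voom with quality weights (-1.41, adjusted p = 0.0379; 7.5% of 8919 genes). Neither tool called another member, and DESeq2 gave Hes6 and Dll1 no adjusted p. It was also called in edgeR without the filter (-1.41, adjusted p = 0.000135; 1.48% of 32856 genes called), when Chat-neg replicate 2 was left out (-1.90, adjusted p = 0.00932; 2.53% of 9809 genes) and when Chat-neg replicate 4 was left out (-0.99, adjusted p = 0.0443; 3.68% of 9752 genes). Without Chat-neg replicate 4, the library in which Hes1 was highest, the difference was thus smaller and yet passed. Without the Paneth-rich Chat-pos replicates 2 and 3 it was -1.27 (adjusted p = 0.349). Over the 17 alternatives the log2 difference of Hes1 ran from -1.90 to -0.99, with adjusted p from 0.000135 to 0.349.

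**Figure D3:**
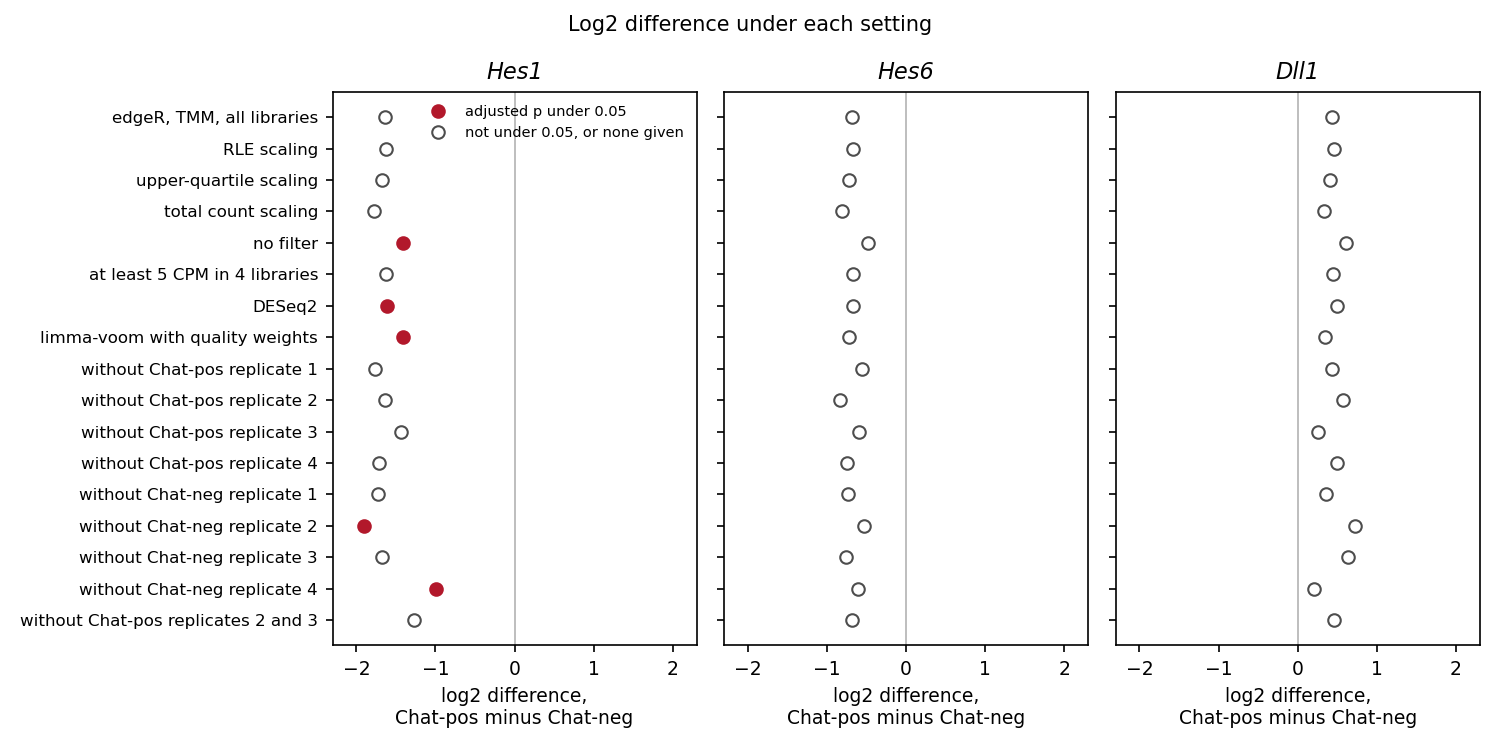
Log2 difference (Chat-pos minus Chat-neg) of Hes1, Hes6 and Dll1, the 3 members that passed the filter, under each setting other than a replicate term. Red points have an adjusted p under 0.05 and open points do not or were given none; all Hes1 points lie at or below -0.99, and no Hes6 or Dll1 point is red.

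Markers of other epithelial cells varied between the same libraries. The 12 stem and progenitor markers summed to 203 to 1233 CPM in the Chat-pos gate, against 171 to 1323 CPM in the Chat-neg gate. The highest sum was that of Chat-neg replicate 4, where Hes1 was highest, and the next was that of Chat-pos replicate 3, with 1233 CPM and the lowest Hes1 of all, but 898 CPM of it came from Olfm4 alone. Without Olfm4, taken out after its values were seen, the remaining 11 markers gave 196, 351, 335 and 194 CPM in Chat-pos replicates 1 to 4, against 269, 309, 154 and 623 CPM in Chat-neg replicates 1 to 4. Chat-neg replicate 4 then stood clearly highest, as it did for Hes1, and the other libraries overlapped between the gates. The number of these markers at 0 counts was 1, 0, 0 and 1 in Chat-pos replicates 1 to 4 and 4, 0, 1 and 0 in Chat-neg replicates 1 to 4. The 8 goblet cell markers, none of them at 0 in any library, summed to 305 to 1803 CPM in the Chat-pos gate, against 466 to 5432 CPM in the Chat-neg gate, with the 5432 CPM in Chat-neg replicate 3, where Hes1 was second highest. The 10 enteroendocrine markers summed to 1196 to 1897 CPM in the Chat-pos gate, against 539 to 1581 CPM in the Chat-neg gate, most of it Sct. Without Sct, which is abundant in all libraries here, the remaining 9 gave 40.9, 23.8, 10.2 and 7.87 CPM in the Chat-pos gate, against 31.1, 69.2, 8.43 and 642 CPM in the Chat-neg gate. That 642 CPM stands in Chat-neg replicate 4 and came largely from Chgb and Tac1, at 215 and 149 counts. Of the 10 enteroendocrine markers, 2, 2, 5 and 5 were at 0 in Chat-pos and 6, 0, 4 and 4 in Chat-neg. The 10 T cell markers summed to 10.4, 428, 13.9 and 11.2 CPM in Chat-pos, against 280, 431, 452 and 199 CPM in Chat-neg, so that all but Chat-pos replicate 2 lay below the Chat-neg libraries; 7, 1, 7 and 7 of the 10 were at 0 in Chat-pos and 5, 1, 2 and 3 in Chat-neg. The 9 endothelial and stromal markers were low but did not overlap, at 1.86 to 5.50 CPM in Chat-pos and 9.28 to 45.1 CPM in Chat-neg, with 4, 5, 6 and 5 of them at 0 in Chat-pos and 6, 2, 2 and 2 in Chat-neg. These sums rest on few counts. In Chat-neg replicate 1 no such marker held more than 2 counts, and in Chat-neg replicate 4 Vim alone gave 29.5 CPM. The receptor yardstick of stray reads did not overlap either, at 0.0296 to 0.0581 CPM per kb in Chat-pos and 0.0716 to 0.701 CPM per kb in Chat-neg. The part of the marked cell types in the Hes1 difference was not tested. Without Chat-neg replicate 3 the log2 difference was -1.68 (edgeR adjusted p = 0.169), and without replicate 4 it was -0.99 (edgeR adjusted p = 0.0443). Leaving out a library does not test that part, since T cell markers were present in every Chat-neg library.

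**Figure D4:**
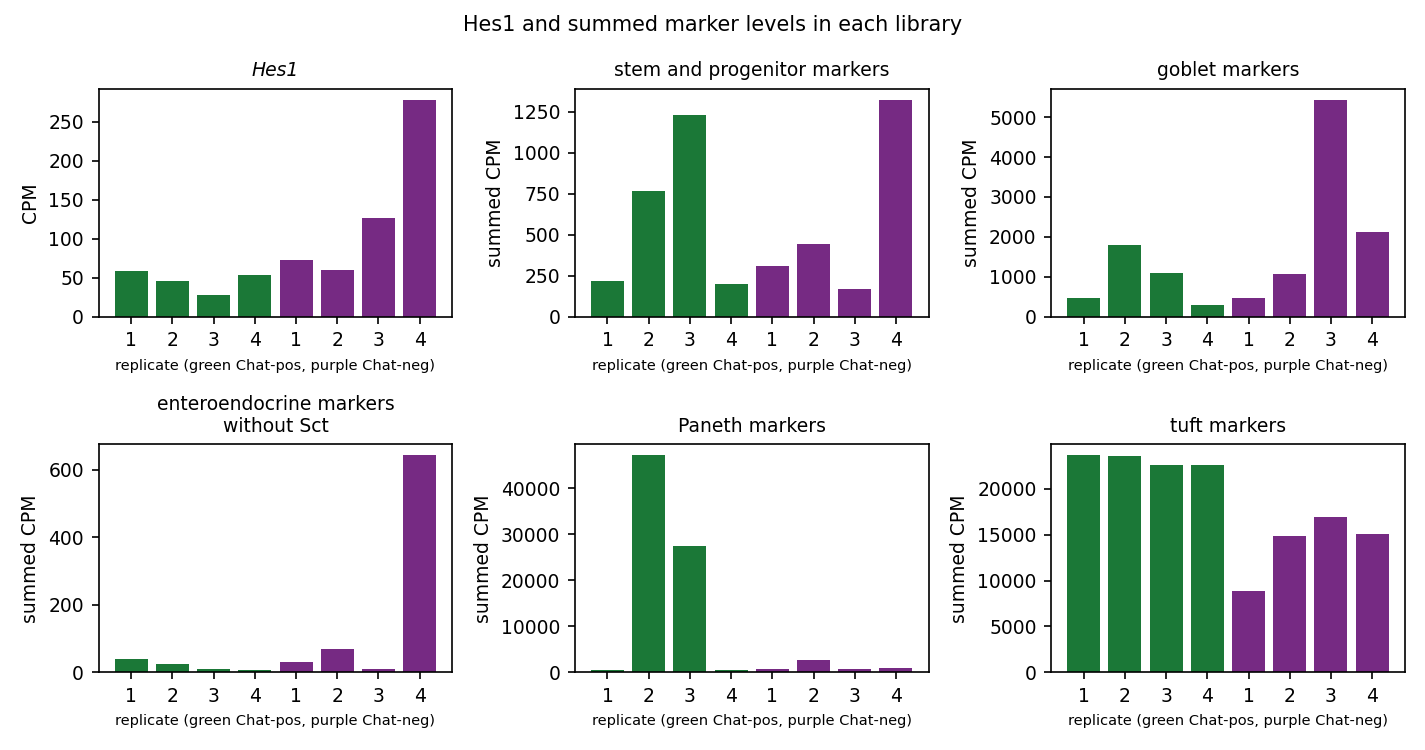
Hes1 in CPM and the summed CPM of 5 marker lists in each library, with Chat-pos (green) left of Chat-neg (purple). Chat-neg replicate 4 has the highest Hes1 (278 CPM), stem and progenitor sum (1323 CPM) and enteroendocrine sum without Sct (642 CPM), while Chat-pos replicate 3 has the lowest Hes1 (28.3 CPM) and a stem and progenitor sum of 1233 CPM, of which Olfm4 makes up 898 CPM.

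The genes whose levels followed those of Hes1 most closely over the 8 libraries were Selenot, which encodes a selenoprotein of the endoplasmic reticulum, G2e3, a ubiquitin ligase gene, and Dbf4, whose product activates the replication kinase CDC7. Their Pearson correlations with Hes1 on the log2(CPM + 1) scale were 0.966, 0.958 and 0.934 over 8 libraries, the highest among 7914 tested genes that averaged 10 CPM or more. The points share the gate, the depth and the library with Hes1, so these values only describe a shared pattern. Selenot had 55.0, 50.2, 48.3 and 60.5 CPM in the Chat-pos gate, against 72.5, 60.5, 81.8 and 106 CPM in the Chat-neg gate, and it did not pass (log2 difference -0.63 ± 0.23, edgeR adjusted p = 0.1002). G2e3 (-0.81 ± 0.43, edgeR adjusted p = 0.283) and Dbf4 (-1.17 ± 0.49, edgeR adjusted p = 0.165) did not pass either. In Chat-neg replicate 1 both stood at 10.4 CPM, under the floor of 31.1 CPM, so that point of their correlations is uncertain.

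Hes6, a relative that is known to oppose Hes1 in neural precursors, did not separate the gates. It lies on chromosome 1 at 91411483 to 91414038 and had 11.0, 20.7, 13.5 and 18.2 CPM in the Chat-pos gate, against 10.4, 30.9, 21.9 and 28.0 CPM in the Chat-neg gate. Chat-neg replicates 2 to 4 lay above all Chat-pos libraries, while Chat-neg replicate 1, with 1 count, lay below them within an interval of 0.262 to 57.7 CPM. Hes6 averaged 15.8 ± 4.404 CPM in the Chat-pos gate, against 22.8 ± 9.08 CPM in the Chat-neg gate (SD, n = 4 each; log2 difference -0.69 ± 0.36, edgeR adjusted p = 0.275). Counts of Hes1 per count of Hes6, a ratio that no scaling of libraries affects, were 5.33, 2.23, 2.10 and 2.91 in Chat-pos and 7.00, 1.96, 5.81 and 9.94 in Chat-neg. The ratios overlapped, since Chat-neg replicate 2 had the lowest of the 8 libraries.

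Atoh1, the factor that sets the secretory fate in the crypt, was near the limit of detection in both gates. It lies on chromosome 6 at 64729125 to 64731245 in a single exon and had 5, 7, 3 and 0 counts in Chat-pos and 0, 2, 2 and 4 counts in Chat-neg. This is 3.05, 3.08, 1.39 and 0 CPM in the Chat-pos gate, against 0, 2.47, 1.69 and 6.22 CPM in the Chat-neg gate, with overlap between the gates. The 0 counts allow up to 1.24 CPM in Chat-pos replicate 4 and up to 31.1 CPM in Chat-neg replicate 1. Atoh1 failed the filter, and without it the log2 difference was -0.53 (edgeR adjusted p = 0.765).

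A wider list of 80 genes of the pathway, its cofactors and the secretory fate was examined next to the 9 members. All 80 were in the table, Tle5 under its older symbol Aes, and 43 passed the filter. Of these 43, 6 were higher and 0 lower in Chat-pos, where 3.62% of all genes tested were called higher and 2.87% lower. Of the 6, 4 were grouped under secretory fate. The list was drawn up with earlier results of these data known, so these counts are not an independent test. DESeq2 and limma-voom also called 6 higher and 0 lower, and 1 gene, Tle1, was lower at an unadjusted p under 0.05 in edgeR. DESeq2 gave Tle1 no adjusted p. The median log2 difference over the 43 was -0.04, beside -0.02 over all 8919 genes tested. In 10 of the 43 genes the Chat-pos libraries all lay above the Chat-neg libraries, where this held for 9.23% of all genes tested, and in 0 all lay below. In either direction, 9 of the 43 had an unadjusted edgeR p under 0.05, beside 20.8% of all genes tested. Without Chat-neg replicate 2 the number of genes higher was 3 (Hdac1, Id3 and Ncstn).

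The proteolytic machinery that cuts Notch held 1 of the genes called, among 8 tested, where 3.62% of all genes tested were called higher. Ncstn encodes nicastrin, the subunit of gamma-secretase that binds the substrate, and it had 67.8, 99.4, 87.3 and 101 CPM in the Chat-pos gate, against 20.7, 51.9, 44.7 and 37.3 CPM in the Chat-neg gate. The groups did not overlap, and Ncstn rose by 1.03 ± 0.24 on the log2 scale (edgeR adjusted p = 0.00844). It passed in all 17 alternatives, with adjusted p up to 0.0441, though 195 bp of its exons overlap Copa on the other strand. Psenen, another gamma-secretase subunit, had 104, 81.4, 82.7 and 110 CPM in the Chat-pos gate, against 41.4, 40.8, 70.0 and 60.6 CPM in the Chat-neg gate, without overlap, and did not pass (0.73 ± 0.24, edgeR adjusted p = 0.0595). It passed with RLE scaling (adjusted p = 0.0486) and without Chat-pos replicates 2 and 3 (adjusted p = 0.0439), and its exons overlap U2af1l4 by 119 bp. Of 8 tested genes of this role, 6 had a positive difference and 2 a negative one, with a median of 0.28. Over all 8919 genes tested, 4328 had a positive difference and 4591 a negative one.

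Of 15 nuclear cofactors tested, 5 had a positive difference and 10 a negative one, with a median of -0.14. Hdac1 was the 1 gene of these 15 that was called higher, where 3.62% of all genes tested were. It encodes a histone deacetylase of corepressor complexes and averaged 123 ± 13.2 CPM in the Chat-pos gate, against 55.3 ± 23.5 CPM in the Chat-neg gate (SD, n = 4 each; log2 difference 0.96 ± 0.22, edgeR adjusted p = 0.00827), and it passed in all 17 alternatives. Tle1, a TLE corepressor of the kind that the Hes motif binds, had 11.6, 13.6, 9.75 and 10.8 CPM in the Chat-pos gate, against 0, 19.8, 27.8 and 24.9 CPM in the Chat-neg gate. Only Chat-neg replicate 1, with 0 counts and a floor of 31.1 CPM, kept the Tle1 groups from separating, and the gene did not pass (-0.98 ± 0.40, edgeR adjusted p = 0.153).

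**Figure D5:**
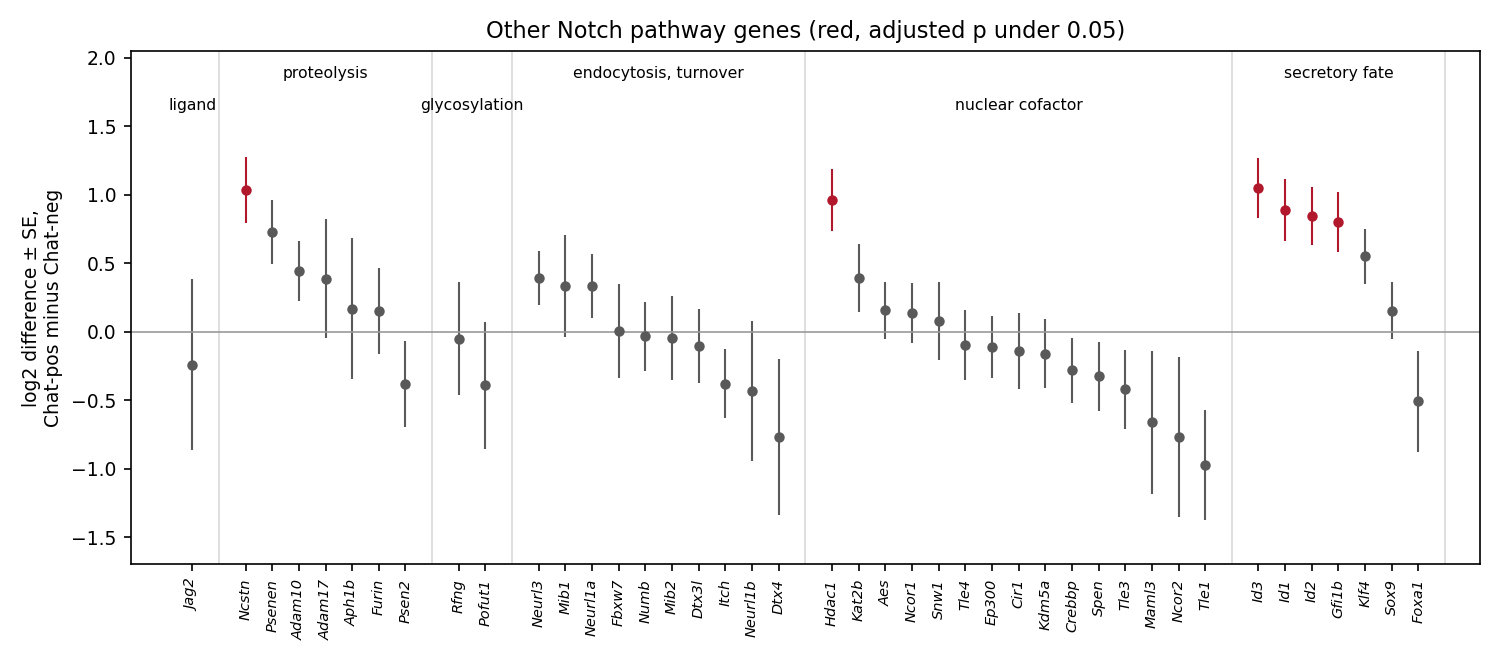
Log2 difference (Chat-pos minus Chat-neg) ± SE of the genes of the wider list that passed the filter, all but 1 of the 43, ordered by role and size, with genes of adjusted p under 0.05 in red. The 6 red genes, Ncstn, Hdac1, Id3, Id1, Id2 and Gfi1b, all lie above 0.

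Of the 7 tested genes grouped under secretory fate, 4 were called higher and 0 lower, where 3.62% of all genes tested were called higher. Of the 7, 6 had a positive difference and 1 a negative one, and 0 was lower even at an unadjusted p under 0.05. The group takes in the Id genes, which were all of the called genes but Gfi1b. Gfi1b, a zinc finger repressor that is a marker of tuft cells within the gut epithelium, averaged 156 ± 5.04 CPM in the Chat-pos gate, against 79.7 ± 35.0 CPM in the Chat-neg gate (SD, n = 4 each; log2 difference 0.80 ± 0.22, edgeR adjusted p = 0.0225). The call of Gfi1b was lost without Chat-neg replicate 2 (adjusted p = 0.0638), Chat-neg replicate 3 (0.0967) or Chat-pos replicate 3 (0.0559), and without both Paneth-rich libraries (0.0678). The other genes called were Id1, Id2 and Id3, inhibitors of basic helix-loop-helix factors, at 0.89 ± 0.23, 0.84 ± 0.21 and 1.05 ± 0.22 on the log2 scale (edgeR adjusted p = 0.0153, 0.0139 and 0.00366). Id1 and Id2 lost their calls without Chat-neg replicate 2 (adjusted p = 0.0800 and 0.0671), and Id1 also without Chat-pos replicate 1 (0.0537). Summed tuft cell markers were also higher in Chat-pos, at 22628 to 23663 CPM against 8857 to 16954 CPM in Chat-neg; their part in the 6 differences, and that of the T cell and of the endothelial and stromal markers, was not tested.

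The remaining roles held no call, with 0 of 13 genes past the edgeR threshold, where 6.49% of all genes tested were called. None of the 13 had an unadjusted edgeR p under 0.05, beside 20.8% of all genes tested. DESeq2 and limma-voom called 0 as well, but DESeq2 gave Jag2, Pofut1 and Rfng no adjusted p. Neurl3, a ubiquitin ligase gene of the Neuralized family, had 198, 260, 197 and 205 CPM in the Chat-pos gate, against 114, 168, 179 and 159 CPM in the Chat-neg gate, without overlap (0.39 ± 0.20, edgeR adjusted p = 0.261). Itch, whose product marks Notch for degradation, stood at -0.38 ± 0.25 (edgeR adjusted p = 0.423). The sugar transferases of the receptor, Pofut1 and Rfng, stood at -0.39 ± 0.46 and -0.05 ± 0.41 (edgeR adjusted p = 0.698 and 0.970), and the ligand gene Jag2 at -0.24 ± 0.62 (edgeR adjusted p = 0.877). Jag2 was 0.10 without Chat-neg replicate 1, and the sign of Rfng turned in 7 of 17 alternatives. Of the 8 further Hes and Hey genes, 0 passed the filter on low counts and 3 had no count in any library.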

How the data were processed

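The labels' protocols describe sorting into SMARTer v4 lysis reagents, cDNA amplification, Nextera XT libraries and single reads. Such libraries carry no molecular identifiers. The authors deposited raw counts per gene symbol for 8 libraries; GRCm38 is the build named, per the submitters' processing notes, while the sources used here do not give the aligner, the counter or the annotation. The 36 rows without a gene name held 58.6% to 64.6% of counts in Chat-pos and 67.8% to 88.4% in Chat-neg and were left out of totals and tests; rows sharing 1 of 114 symbols were summed.

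The tests on these counts used edgeR 4.0.16 and R 4.3.3 (scaling by TMM, filterByExpr, robust quasi-likelihood fit, group as sole term, Benjamini-Hochberg adjustment over 8919 genes, threshold 0.05), after a check on simulated counts. The SE of a log2 difference is its size divided by the square root of F. Alternatives were other scalings and filters, DESeq2 1.42.0, limma 3.58.1 voom, a replicate term and libraries left out. Exon lengths, positions and overlaps came from GENCODE M21. Per-library intervals are exact binomial (scipy 1.17.1).

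The rule for named genes took the 9 members, the genes of the wider list that were called or had the 2 smallest p in their role, and the 3 genes most like Hes1. Members and lists were chosen with earlier results of these data known. Of 9 marker lists, tuft, stem, goblet, Paneth, enteroendocrine, T cell, and endothelial and stromal sums stand in the results. The others summed to 32700 to 53637 CPM in Chat-pos and 19330 to 44447 CPM in Chat-neg for enterocytes, and to 12.8 to 27.8 CPM in Chat-pos and 14.0 to 41.4 CPM in Chat-neg for B and myeloid cells. For 1 tested gene of the wider list, individual values are not reported here.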

Additional observations from a re-analysis of the deposited data

Results flagged for a closer look

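In 5 of the 62 groups of 4 libraries examined (members, named genes of the wider list and marker sums), 1 library stood apart by Dixon's test; chance flags about 1 in 20. Notch2 in Chat-neg replicate 1, at 20.7 CPM, lay far above the next library at 4.66 CPM, a value that rests on 2 counts. Neurl3 in Chat-pos replicate 2, at 260 CPM, stood above the next at 205 CPM. The T cell markers summed to 428 CPM in Chat-pos replicate 2, with 13.9 CPM next. The Paneth cell markers summed to 2765 CPM in Chat-neg replicate 2, with 985 CPM next. The endothelial and stromal markers summed to 1.86 CPM in Chat-pos replicate 3, below the next library at 4.97 CPM.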

How the results depend on the processing

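Hes1, Hes6 and Dll1 kept their direction in all 17 alternatives. The number of members called, 0 at first, was 1 (Hes1) with no filter, with DESeq2 and with limma-voom, and 0 to 1 when a library was left out. Same-numbered libraries did not deviate together (correlations 0.053, 0.033, -0.023 and -0.010 over 8919 genes, and only replicate 1 correlated best with its own number). A fit with the replicate block called 1 member, Hes1 (-1.52, adjusted p = 0.0260), 6 genes of the wider list, and 290 genes higher and 230 lower. Leaving out a library gave 3 to 6 genes of the wider list higher, and 138 to 360 of all genes higher and 110 to 309 lower, against 323 and 256. The count of all genes lower was 143 with no filter and 86 without Chat-pos replicates 2 and 3. Total count scaling gave 225 higher and 380 lower, and moved the median over all genes to -0.14. Rfng, at -0.05, was 0.16 with no filter, 0.07 with limma-voom and -0.29 to 0.14 without a library, and Jag2 was -0.66 to 0.10; the cause was not tested. Depth limits the 6 members under the filter: in Chat-neg replicate 1, 3 counts equal 31.1 CPM.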
